A study of Mus musculus with 6 samples.

Results

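The integrin subunits that bind cartilage matrix were taken as the 10 genes *Itga1*, *Itga3*, *Itga5*, *Itga6*, *Itga8*, *Itga9*, *Itga10*, *Itga11*, *Itgb1* and *Itgb5*, matched by gene symbol among the 54532 genes of the deposited count table. All 10 were found. They were compared between Gli1+ cells (CD45- CD31- Ter119- tdTomato+) and Gli1- cells (CD45- CD31- Ter119- tdTomato-), with 3 libraries of each population. All cells came from *Gli1-CreERT2; tdTomato* mice on a c57BL/6 background that were 1 month old, and both populations were sorted from the same mice 24 h after tamoxifen (TAM). In these mice TAM activates a recombinase made from the *Gli1* locus, and cells in which it has acted are red. The Gli1- population therefore also holds any *Gli1*-expressing cell that had not recombined. The study's text names costal cartilage as the source of the RNA-seq cells, while the labels name the growth plate.

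Integrins are pairs of an alpha and a beta subunit that span the plasma membrane and tie the matrix outside the cell to the actin skeleton inside. The alpha subunit largely sets the ligand. In cartilage the collagen-binding pairs contain alpha1, alpha10 or alpha11 with beta1, and alpha10beta1 is known as the main collagen II receptor of chondrocytes. Alpha3 and alpha6 bind laminins, alpha5 and alpha8 bind the RGD sequence of fibronectin and related proteins, and alpha9 binds tenascin C among others. Beta5 pairs with alphaV, which binds vitronectin.

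*Itga1*, *Itga10* and *Itga11* carry an inserted domain that grips collagen through a metal ion, and of the 8 alpha members they were those whose populations did not overlap, so the stretch that encodes the metal-binding motif is shown for each. The 75-base windows are the coding strand in GRCm38 from GENCODE M21 transcripts, 5′ to 3′, and capitals mark the 5 codons of the motif. Each lies inside exon 6 of its transcript, at chr13:115030084-115030158 on the minus strand for *Itga1*, at chr3:96649037-96649111 on the plus strand for *Itga10* and at chr9:62735274-62735348 on the plus strand for *Itga11*.
Itga1: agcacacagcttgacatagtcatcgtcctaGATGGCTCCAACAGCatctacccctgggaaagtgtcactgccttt
Itga10: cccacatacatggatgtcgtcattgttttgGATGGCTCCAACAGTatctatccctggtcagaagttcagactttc
Itga11: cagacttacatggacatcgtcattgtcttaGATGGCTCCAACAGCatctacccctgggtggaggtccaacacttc
*Itga10* and *Itga11* shared 57 of the 75 bases, *Itga1* and *Itga11* shared 53, and *Itga1* and *Itga10* shared 48. Within the motif 14 or 15 of the 15 bases were the same in each pair. The other 5 alpha subunits did not hold this motif. The short tail inside the cell, at the other end of the gene, differs in length between the 3 subunits and is shown from 2 codons before a glycine and phenylalanine motif (capitals) to the last codon before the stop. It is encoded by the last 2 exons in each gene, at chr13:114960093-114965600 for *Itga1*, chr3:96662706-96663027 for *Itga10* and chr9:62782047-62782696 for *Itga11*, with the intron left out.
Itga1: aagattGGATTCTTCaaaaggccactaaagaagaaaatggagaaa
Itga10: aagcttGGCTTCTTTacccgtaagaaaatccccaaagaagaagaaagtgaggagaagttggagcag
Itga11: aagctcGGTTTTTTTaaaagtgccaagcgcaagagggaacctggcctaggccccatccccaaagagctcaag
The tails spanned 45, 66 and 72 bases from that start. The capitals encode the juxtamembrane motif through which alpha tails contact the beta tail. In the transcript used for each gene, it was found within the last 60 residues in 7 of the 8 alpha members. It was not in the one used for *Itga3*, a gene with alternative tails.

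Totals per library lay between 17114101 and 18602482 counts. Gli1+ replicate 1 stood apart, with 15000 genes holding a count against 20666 to 23360 in the others. *Gli1*, the gene that drives the label, had 86, 104 and 152 counts in Gli1+ replicates 1 to 3 and 14, 19 and 46 in Gli1- replicates 1 to 3. By the quasi-likelihood test of edgeR it had a log2FC of 2.09 (standard error, SE, of 0.68) and an adjusted p of 0.9999, and DESeq2 with the replicate number as a block called it (adjusted p = 0.0189). The 14 chondrocyte markers summed to between 7907 and 36255 CPM (counts scaled to library size) in every library. Gli1- replicate 1 also held leukocyte RNA, with a summed level of 3025 CPM for 8 neutrophil markers against 9.35 to 75.4 CPM in the other 5 libraries, and 730 CPM for 8 macrophage markers against 24.3 to 161 CPM.

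All 10 subunits passed the filter on low counts and were tested among 14801 genes. With both a |log2FC| above 1 and an adjusted p below 0.05 required, edgeR called 0 of the 10, and 0 of all 14801 genes (0%). DESeq2's Wald test on the same design called 30 genes, none a member, and limma-voom called 0. At an unadjusted p-value under 0.05 in edgeR, *Itga1* was higher in Gli1+ cells and *Itga10* lower, 1 member in each direction, where 1.43% of all genes were higher and 2.04% lower. The 3 Gli1+ libraries lay above the 3 Gli1- libraries for 1 member (4.04% of all genes) and below them for 3 members (4.45%). The median log2FC of the 10 was -0.03, against 0.00 over all genes tested. With 3 libraries in each population, the p-values set a difference against the spread between these libraries, which the fits estimate partly from all genes.

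**Figure D1:**
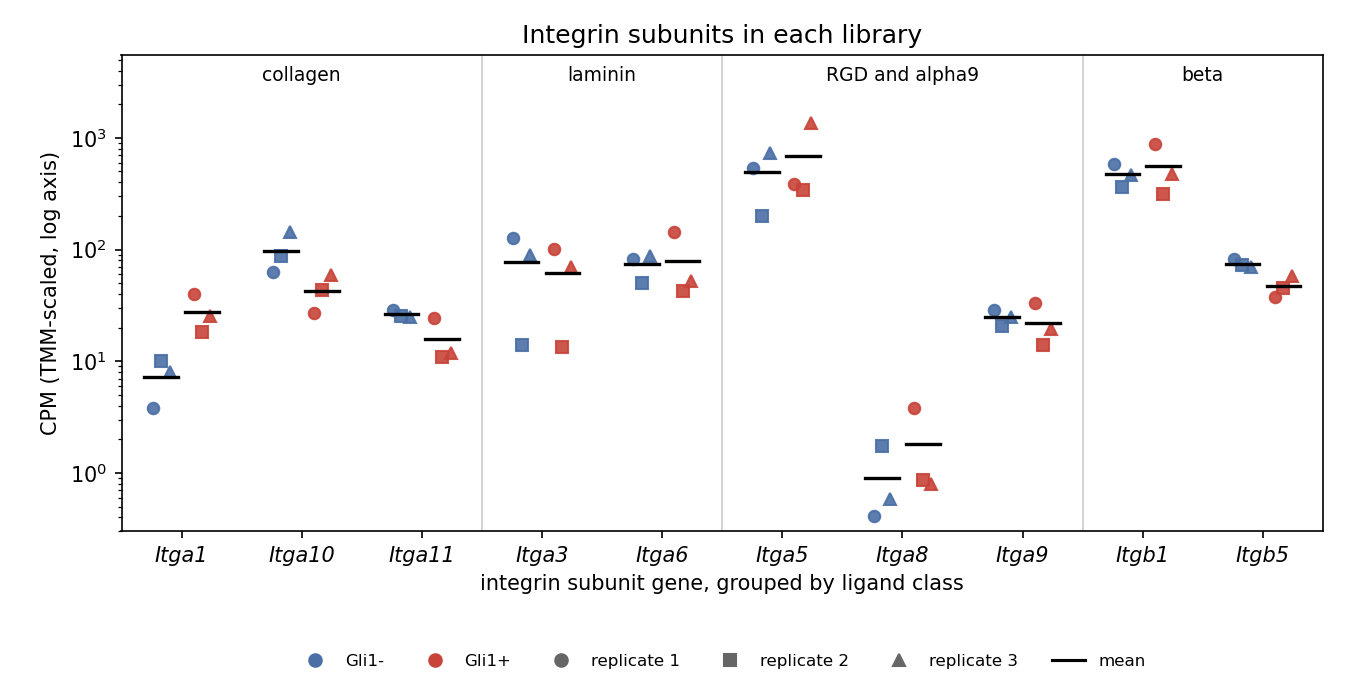
Level of the 10 integrin subunit genes in the 6 libraries, in TMM-scaled CPM on a log axis, with genes grouped by ligand class. Each symbol is 1 library (blue, Gli1-; red, Gli1+; the shape gives the replicate number) and black bars are means of 3 libraries. *Itga1* lies higher in all 3 Gli1+ libraries, *Itga10*, *Itga11* and *Itgb5* lie lower, and the other 6 genes overlap.

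The same-numbered libraries deviated together most clearly for number 2 (correlation of 0.720) and least for number 1 (0.223), as given under the processing. The members were therefore also read from fits with the replicate number as a block. When the block entered the Wald test of DESeq2, 115 genes (0.777%) were called higher in Gli1+ cells and 313 (2.11%) lower, and 2 of the 10 members were among them. These were *Itga1*, at a log2FC of 1.95 (adjusted p = 0.0233 from DESeq2), and *Itga10*, at a log2FC of -1.18 (adjusted p = 0.00953 from DESeq2). In edgeR with the same block no gene was called, and an unadjusted p below 0.05 was reached by 1 member on the higher side, against 3.36% of all genes, and by 2 on the lower side, against 5.25%. The member added by the block was *Itga11*. The call of *Itga1* and *Itga10* thus depended on the test as well as on the block.

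**Figure D2:**
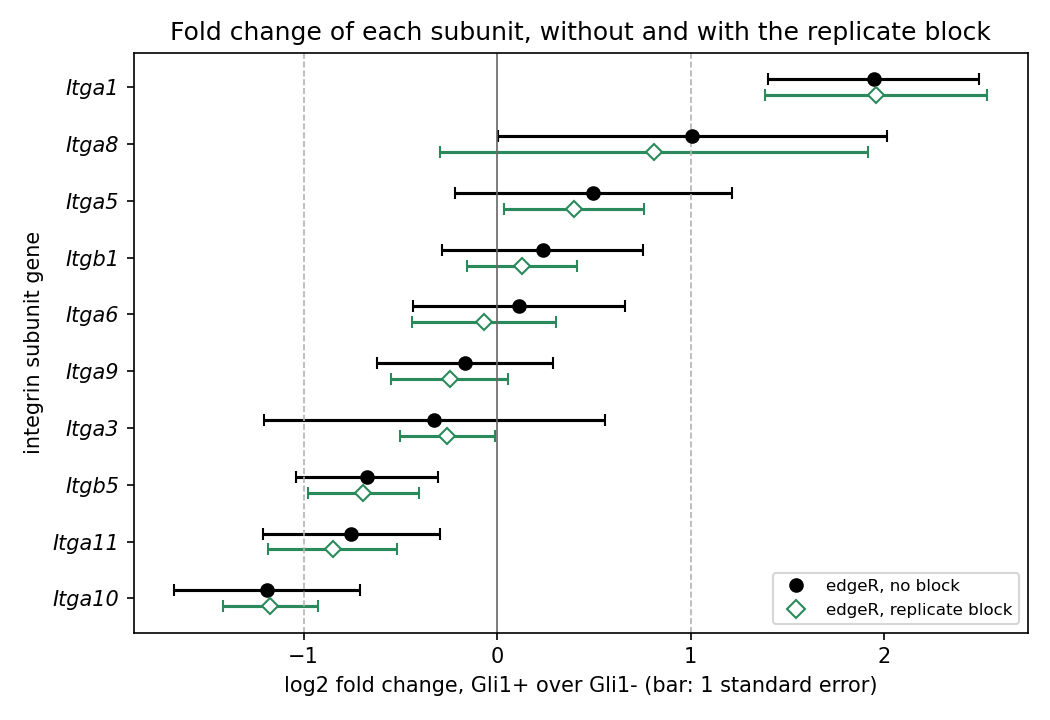
Log2 fold change of each subunit, Gli1+ over Gli1-, from edgeR without (filled circles) and with (open diamonds) the replicate block. Bars are 1 standard error, and dashed lines mark a log2FC of -1 and 1. Without the block *Itga1* at 1.95, *Itga8* at 1.01 and *Itga10* at -1.19 lie beyond a dashed line, and with it *Itga1* and *Itga10* do.

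Among the collagen receptors, *Itga1* (ENSMUSG00000042284, chromosome 13, 114953096 to 115101964, minus strand), which encodes the alpha1 subunit known from smooth muscle, fibroblasts and mesenchymal cells, was at 40.0, 18.1 and 25.5 CPM in Gli1+ replicates 1 to 3. It was at 3.78, 10.01 and 7.93 CPM in Gli1- replicates 1 to 3. The populations did not overlap, and the lowest Gli1+ library was above the highest Gli1- library. Gli1+ cells averaged 27.9 ± 11.1 CPM and Gli1- cells 7.24 ± 3.18 CPM (mean ± SD, n = 3 each), a ratio of 3.85. In edgeR's fit, it had a log2FC of 1.95 (SE 0.55, 95% interval 0.69 to 3.20, unadjusted p = 0.00716 and adjusted p = 0.9999 from edgeR). Within replicate numbers the log2 ratio of Gli1+ to Gli1- was 3.41, 0.86 and 1.69 for numbers 1, 2 and 3, so the direction was the same in 3 of 3 pairs while the size was largest in the pair that holds both libraries named above. Leaving out Gli1+ replicate 1 gave a log2FC of 1.58, and leaving out Gli1- replicate 1 gave 1.63. The raw counts behind *Itga1* were 295 to 756 in Gli1+ libraries and 73 to 151 in Gli1- libraries.

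Smooth muscle and pericytes also express *Itga1*, and the summed level of 8 of their markers was 26.8 to 126 CPM in Gli1+ libraries and 25.9 to 61.9 CPM in Gli1- libraries, so the ranges overlapped. Of the 8, 3 had a log2FC above 0 and 3 were lower without overlap, against 4.45% of all genes. The median log2FC of the 8 was -0.11. The most abundant per kb, *Acta2*, was at 12.8, 103 and 49.5 CPM in Gli1+ and 20.5, 41.1 and 8.25 CPM in Gli1- replicates 1 to 3. *Cnn1*, which encodes calponin, was at 4.76, 9.33 and 2.05 CPM in Gli1+ and 0.103, 2.12 and 0.582 CPM in Gli1- cells. DESeq2 with the block called it higher (adjusted p = 0.0370), alone of the 8, where 0.777% of all genes were called higher. Neither *Acta2* nor *Cnn1* was among the 3 lower markers. The part of these cells in the level of *Itga1* was not tested. In RNA from a population, fewer cells that express a gene and less of its RNA per cell cannot be told apart.

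*Itga10* (ENSMUSG00000090210, chromosome 3, 96645584 to 96664519, plus strand), which encodes the chondrocyte collagen II receptor subunit alpha10, ran the other way. It was at 27.1, 43.1 and 58.7 CPM in Gli1+ replicates 1 to 3, and at 62.6, 86.9 and 144 CPM in Gli1- replicates 1 to 3. The populations did not overlap, although the highest Gli1+ and the lowest Gli1- library were close. Gli1+ cells averaged 43.0 ± 15.8 CPM and Gli1- cells 97.9 ± 42.0 CPM (mean ± SD, n = 3 each), a Gli1- to Gli1+ ratio of 2.28. The quasi-likelihood fit put its log2FC at -1.19 (SE 0.48, 95% interval -2.29 to -0.09, unadjusted p = 0.0378 and adjusted p = 0.9999 from edgeR). The log2 ratios within replicate numbers were -1.21, -1.01 and -1.30, a far narrower spread than the levels themselves showed. Number 3 was the highest and number 1 the lowest in both populations. With the block the standard error of *Itga10* was 0.25, and the unadjusted p-value of edgeR was 0.00396. Leaving out Gli1- replicate 3 without the block moved the log2FC to -0.80 (unadjusted p = 0.177 from edgeR), and leaving out Gli1+ replicate 1 moved it to -0.96 (unadjusted p = 0.0848 from edgeR).

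*Itga11* (ENSMUSG00000032243, chromosome 9, 62677826 to 62783982, plus strand) encodes alpha11, the collagen I receptor subunit of fibroblasts and mesenchymal cells. It was at 24.3, 10.9 and 11.9 CPM in Gli1+ replicates 1 to 3 and at 28.9, 25.5 and 25.1 CPM in Gli1- replicates 1 to 3. The Gli1- libraries were close together, and Gli1+ replicate 1 lay just under them while replicates 2 and 3 were well below. Gli1+ cells averaged 15.7 ± 7.49 CPM and Gli1- cells 26.5 ± 2.06 CPM (mean ± SD, n = 3 each). The fit gave it a log2FC of -0.75 (SE 0.46, unadjusted p = 0.138 and adjusted p = 0.9999 from edgeR), and -0.85 with the block (unadjusted p = 0.0478 from edgeR). The value was -1.24 when Gli1+ replicate 1 was left out without the block. Leaving out both libraries of number 1 and keeping the block, a setting with 2 pairs, edgeR called *Itga11* at -1.16, together with *Itga10* at -1.16 and *Itga1* at 1.27. In that setting 1201 genes were called in all, 3.16% of those tested on the higher side and 4.67% on the lower. The same 4 libraries without the block gave 0 calls in edgeR, with 282 genes at an unadjusted p below 0.05 and an adjusted p of 1.00 for each of these 3 members.

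**Figure D3:**
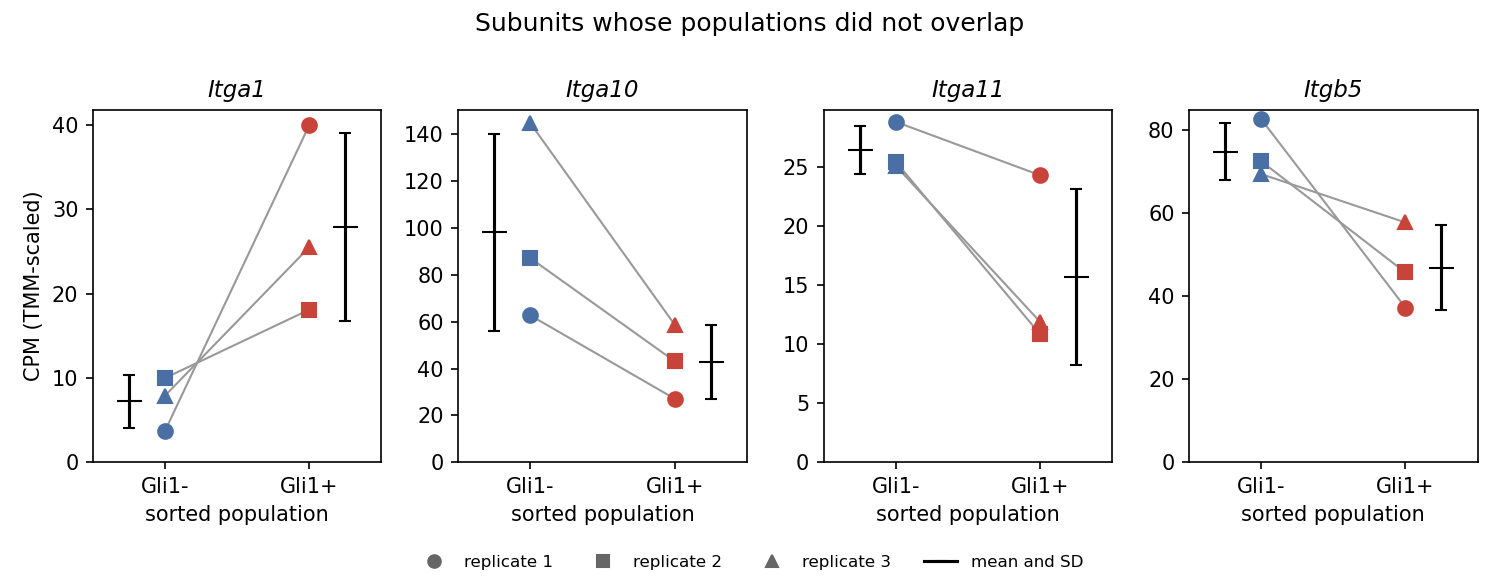
The 4 subunits whose populations did not overlap, in TMM-scaled CPM on linear axes that start at 0. Lines join libraries with the same replicate number, and bars beside them give mean and SD of 3 libraries. *Itga1* is higher in Gli1+ cells in 3 of 3 pairs, and *Itga10*, *Itga11* and *Itgb5* are higher in Gli1+ cells in 0 of 3 pairs.

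The fibroblast and perichondrium markers, 10 genes, summed to 1832 to 4210 CPM in Gli1+ libraries and 2277 to 10256 CPM in Gli1- libraries. DESeq2 with the block called 3 of the 10 lower, where 2.11% of all genes were. The 10 dissociation stress genes, which respond to tissue digestion, summed to 2005 to 16202 CPM in Gli1+ libraries and 11275 to 33315 CPM in Gli1- libraries. In the same fit 6 of these 10 were called lower, against the same 2.11% of all genes. The ranges of both sums overlapped, and the stress sum was lower in the Gli1+ library of each number, as were *Itga10*, *Itga11* and *Itgb5*. Of the 14 chondrocyte markers, 3 had a log2FC above 0 in edgeR. DESeq2 with the block called 0 of them higher, against 0.777% of all genes, and 2 lower, against 2.11%. Of 6 hypertrophic chondrocyte markers it called 1 higher (*Mmp13*) and 1 lower (*Col10a1*). The part of these cells and genes in the values of the members was not tested. Without Gli1- replicate 1, the library with leukocyte RNA, the log2FC was -1.43 for *Itga10*, -0.70 for *Itga11* and -0.60 for *Itgb5*.

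The populations overlapped for both laminin-binding subunits. *Itga3* (ENSMUSG00000001507, chromosome 11, 95044474 to 95076801, minus strand), which encodes the laminin receptor subunit alpha3, was at 101, 13.3 and 70.1 CPM in Gli1+ replicates 1 to 3 and 127, 14.1 and 89.6 CPM in Gli1- replicates 1 to 3. The replicate numbers differed far more than the populations did, with number 2 low in both. The log2FC was -0.32 with a standard error of 0.88, which the block brought to -0.26 with a standard error of 0.24. *Itga6* (ENSMUSG00000027111, chromosome 2, 71745616 to 71858416, plus strand), which encodes alpha6, a partner of beta1 or beta4, averaged 79.7 ± 56.1 CPM (SD, n = 3) across the Gli1+ libraries and 73.8 ± 20.9 CPM (SD, n = 3) across the Gli1- libraries. In edgeR's fit, it had a log2FC of 0.11 (SE 0.55, 95% interval -1.15 to 1.37, adjusted p = 0.9999 from edgeR), with Gli1+ replicate 1 at 144 CPM and the other 5 libraries between 42.9 and 88.4 CPM. *Itgb4*, the beta subunit that joins alpha6 to laminin in hemidesmosomes, was at 4.23, 1.84 and 2.57 CPM in Gli1+ cells and 0.621, 0.862 and 2.06 CPM in Gli1- cells, a mean of 0.290 CPM per kb over the 6 libraries against 8.5 for *Itga6*.

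The fibronectin receptor subunit *Itga5* (ENSMUSG00000000555, chromosome 15, 103344286 to 103366763, minus strand) was at 384, 342 and 1353 CPM in Gli1+ replicates 1 to 3 and at 533, 199 and 740 CPM in Gli1- replicates 1 to 3. Number 3 was highest and number 2 lowest in both populations, which overlapped. The quasi-likelihood fit put its log2FC at 0.50 (SE 0.72, 95% interval -1.15 to 2.14, adjusted p = 0.9999 from edgeR). The within-number log2 ratios were -0.47, 0.78 and 0.87, and the sign of the log2FC turned to -0.44 when Gli1+ replicate 3 was left out. *Itga8* (ENSMUSG00000026768, chromosome 2, 12106632 to 12301922, minus strand), which encodes the RGD-binding alpha8 of smooth muscle and kidney mesenchyme, had 72, 14 and 15 counts in Gli1+ cells and 8, 26 and 11 in Gli1- cells. Its log2FC of 1.01 (SE 1.01, 95% interval -1.30 to 3.32, adjusted p = 0.9999 from edgeR) rested on Gli1+ replicate 1, without which it was -0.14. *Itga9* (ENSMUSG00000039115, chromosome 9, 118606690 to 118901003, plus strand), whose alpha9 product binds tenascin C, lay between 13.9 and 33.2 CPM in all 6 libraries and had a log2FC of -0.17 (SE 0.45, 95% interval -1.21 to 0.88, adjusted p = 0.9999 from edgeR). It was the alpha subunit with the smallest spread, its highest library being 2.38 times its lowest.

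The common beta subunit *Itgb1* (ENSMUSG00000025809, chromosome 8, 128685654 to 128733200, plus strand), with which each of the 8 alpha members can pair, was at 884, 313 and 470 CPM in Gli1+ replicates 1 to 3 and at 587, 364 and 466 CPM in Gli1- replicates 1 to 3. The Gli1+ average of 556 ± 295 CPM and the Gli1- average of 472 ± 112 CPM (SD, n = 3 each) lay within each other's spread, and edgeR gave a log2FC of 0.23 (SE 0.52, 95% interval -0.95 to 1.42, adjusted p = 0.9999 from edgeR). *Itgb5* (ENSMUSG00000022817, chromosome 16, 33829665 to 33949338, plus strand), the vitronectin receptor subunit that pairs with alphaV, was at 37.2, 45.7 and 57.7 CPM in Gli1+ cells and at 82.5, 72.4 and 69.4 CPM in Gli1- cells. Its populations did not overlap. In edgeR's fit, it had a log2FC of -0.67 (SE 0.37, 95% interval -1.52 to 0.17, unadjusted p = 0.103 and adjusted p = 0.9999 from edgeR), and neither fit with the block over all 6 libraries called it. *Itgav*, its alpha partner, was at 481, 88.6 and 231 CPM in Gli1+ cells and 151, 47.4 and 172 CPM in Gli1- cells, with overlapping populations and a log2FC of 1.11 (SE 0.71, adjusted p = 0.9999 from edgeR). *Itgav* was higher in the Gli1+ library of each number, where *Itgb5* was lower.

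Per kilobase of gene length, *Itgb1* at 126 CPM per kb and *Itga5* at 120 CPM per kb led the 10 genes over the 6 libraries, and *Itgb1* was the higher of these in 4 of 6 libraries, so that pair did not differ beyond its spread. *Itgb5* followed at 17.1, *Itga10* at 13.6, *Itga3* at 12.1 and *Itga6* at 8.5 CPM per kb. In this middle group *Itgb5* was above *Itga10* in 5 of 6 libraries, *Itga10* above *Itga3* in 3 and *Itga3* above *Itga6* in 4. *Itga11* at 4.11, *Itga9* at 3.05, *Itga1* at 0.944 and *Itga8* at 0.185 CPM per kb made up the low end, and every step there held in 6 of 6 libraries except that from *Itga11* to *Itga9*, which held in 5. The order differed between populations at one place in the middle, where *Itga10* stood above *Itga3* and *Itga6* in Gli1- cells, at a level of 18.9 ± 8.09 CPM per kb (SD, n = 3), and below them in Gli1+ cells, with 8.29 ± 3.04 CPM per kb (SD, n = 3). That place rested on the means, since *Itga6* was above *Itga10* in 1 of 3 Gli1+ libraries. *Itga5* and *Itgb1* also changed places, *Itga5* leading in Gli1+ cells through 1 library. The length in the table was far above that of the longest coding transcript for *Itga1* (18599 against 10967 bases) and *Itga6* (9025 against 4156 bases), and a shorter length would raise their level per kb in all libraries alike. For *Itga10* the 2 lengths were close (5186 against 5044 bases). The place of *Itga6* in the middle group therefore depends on the length used, and the order given holds for the length in the table alone.

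Of the summed level per kb of the 8 alpha subunits, *Itga5* made up 75.4 ± 14.03% (SD, n = 3) in Gli1+ cells and 64.2 ± 8.29% (SD, n = 3) in Gli1- cells, and these ranges overlapped. The 3 collagen-binding subunits together made up 9.0 ± 3.95% and 19 ± 10.01% (SD, n = 3). The ranges overlapped, at 4.84 to 12.7% in Gli1+ and 11.1 to 30.3% in Gli1- libraries. The collagen-binding *Itga2* is not among the members and was not in this sum. Within that collagen-binding sum *Itga1* was 8.54 to 17.7% in Gli1+ libraries and 1.13 to 2.42% in Gli1- libraries, without overlap. *Itga10* was the largest of the 3 on average, at 63.8 ± 17.9% in Gli1+ cells and 75.6 ± 8.26% in Gli1- cells (SD, n = 3).

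**Figure D4:**
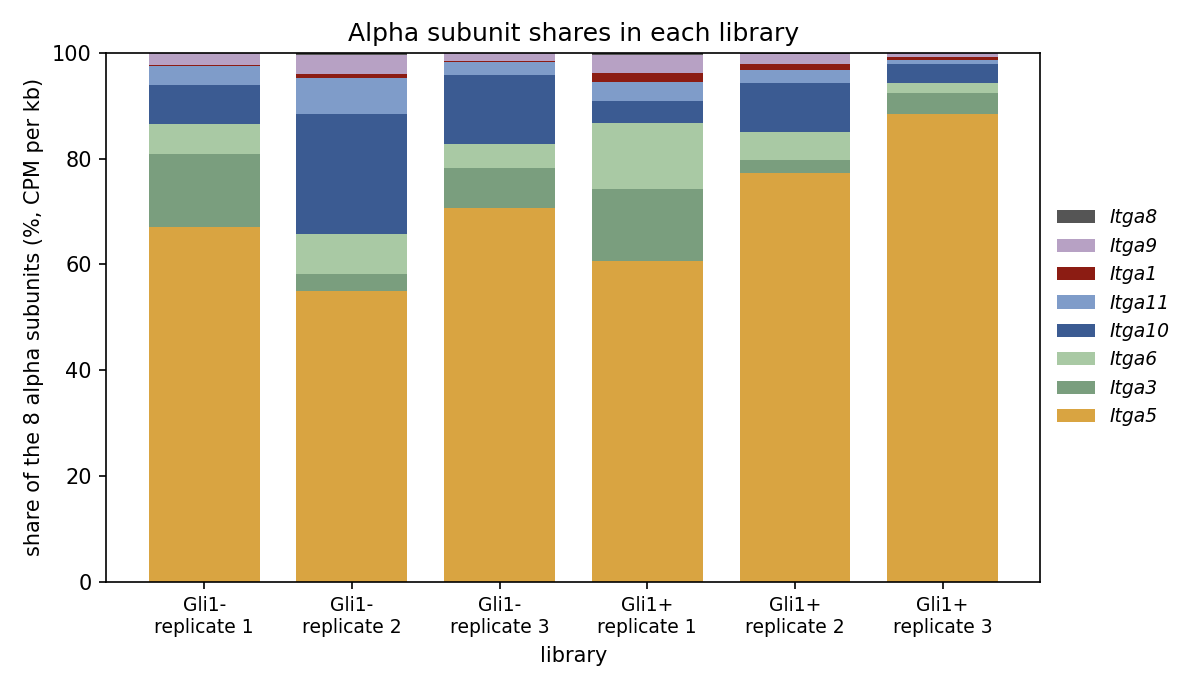
Share of each alpha subunit in the sum of the 8 alpha members per library, from CPM per kb, in percent. Each bar is 1 library. *Itga5* takes the largest share in all 6 libraries, from 54.9 to 88.5%, and *Itga10* (dark blue) takes 7.49 to 22.8% in Gli1- and 3.65 to 9.27% in Gli1+ libraries.

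Ratios formed inside a library do not depend on how libraries were scaled, and 5 were compared by a 2-sided exact permutation test, which with 3 against 3 cannot give less than p = 0.1. The classes held members alone, *Itga5* and *Itga8* as RGD-binding and *Itga1*, *Itga10* and *Itga11* as collagen-binding. *Itgav*, which also binds RGD, and *Itga2* were left out. The log2 ratio of RGD-binding to collagen-binding alpha members was 2.69, 2.60 and 4.19 in Gli1+ replicates 1 to 3 and 2.59, 0.867 and 2.18 in Gli1- replicates 1 to 3. The populations just failed to overlap, and the difference in means was 1.28 (exact permutation p = 0.1, 0.5 after adjustment over the 5 ratios), higher in Gli1+ cells in 3 of 3 pairs. The separation depended on gene length, the difference being 0.96 (exact permutation p = 0.4) without division by length and 1.19 (exact permutation p = 0.3) with the longest coding transcript. The log2 ratio of *Itgb1* to *Itgb5* differed by 0.82 (exact permutation p = 0.2, adjusted 0.5), also higher in 3 of 3 pairs, with Gli1+ replicate 1 at 4.37 and the other 5 libraries between 2.13 and 2.83. That of collagen-binding to laminin-binding subunits differed by -0.70 (exact permutation p = 0.5, adjusted 0.833). *Itga10* over *Itga11* differed by -0.32 (exact permutation p = 0.7, adjusted 0.875), so these collagen receptor subunits were not seen to part from each other at this spread. The 8 alpha members over *Itgb1* differed by 0.04 (exact permutation p = 0.9, adjusted 0.9), with SDs of 1.09 and 0.590 in Gli1+ and Gli1- cells.

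Over the 6 libraries, the profile of *Itgb1* was nearest to *Zfp652*, *Otud6b* and *Maco1* among 8450 genes with a mean of at least 10 CPM. The root mean square distance of the centred log2 CPM was 0.0528, 0.0904 and 0.102, against a median of 0.709. Of the other members, *Itga9* at 0.211 and *Itga6* at 0.241 were nearest to *Itgb1*. The profile of *Itga10* was nearest to *Dennd3*, *Nfatc2* and *Ssh1*, at 0.177, 0.213 and 0.214 against a median of 0.944, and among the members to *Itgb5*, at 0.505. With 6 points that share 2 populations and 3 numbers, these distances describe the libraries alone.

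Of 8 other integrin subunits of adherent cells, 7 were tested and 0 were called by edgeR. At an unadjusted p-value under 0.05 in edgeR, where 1.43% of all genes were higher and 2.04% lower, 0 were higher and 1 lower. That one was *Itgb8*, a beta subunit that pairs with alphaV and binds latent TGF-beta, at 1.69, 3.38 and 2.57 CPM in Gli1+ cells and 9.15, 7.63 and 15.3 CPM in Gli1- cells. The populations of *Itgb8* did not overlap, edgeR gave it a log2FC of -2.07 (SE 0.57, adjusted p = 0.9999 from edgeR), and DESeq2 with the block called it (adjusted p = 0.0121). *Itga2*, the remaining collagen-binding alpha subunit, was low at 2.27 to 5.503 CPM in Gli1+ and 5.92 to 8.09 CPM in Gli1- libraries, without overlap, at a log2FC of -0.93 (SE 0.57, adjusted p = 0.9999 from edgeR). *Itgb3* at 2.10 to 23.6 CPM, *Itga4* at 0.368 to 6.08 CPM and *Itga7* at 0.847 to 6.30 CPM overlapped between populations, and *Itgb6* did not pass the filter. Of the 9 leukocyte and platelet subunits 4 were tested, and *Itgb2*, the common beta subunit of leukocytes, was at 172 CPM in Gli1- replicate 1 and at 1.48 to 4.29 CPM in the other 5 libraries. *Itgal*, its lymphocyte and myeloid partner, was at 40.8 CPM in that library and at 0.105 to 0.899 CPM elsewhere. That library was also the one with high neutrophil markers. *Itga2b* of platelets lay between 0 and 8.04 CPM, and *Itgb7* between 1.32 and 7.81 CPM.

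The matrix genes whose products the members bind were also measured. Of 32 ligand genes 31 were tested and 0 were called by edgeR. At an unadjusted p-value under 0.05 in edgeR, where 1.43% of all genes were higher and 2.04% lower, 3 were higher and 1 lower. Named after their values were seen, these were the basement membrane genes *Nid2*, *Lama1* and *Lamb3* on the higher side, at log2FC of 1.38, 2.08 and 1.06, and *Vcam1*, a counter-receptor of alpha4 and alpha9 integrins, at -1.15. DESeq2 with the block called 4 of the 31 higher (*Nid2*, *Lamb3*, *Fn1* and the collagen VI gene *Col6a3*) and 2 lower (*Vcam1* and the collagen III gene *Col3a1*). Over all genes that fit called 0.777% higher and 2.11% lower. *Fn1*, which encodes fibronectin, the ligand of alpha5beta1, had the highest level per kb of the list, at 69131, 15115 and 55915 CPM in Gli1+ cells and 17186, 10090 and 24556 CPM in Gli1- cells. The fit gave it a log2FC of 1.44 (SE 0.79, adjusted p = 0.9999 from edgeR), and DESeq2 with the block called it (adjusted p = 0.0389). *Col2a1*, which encodes collagen II, ran from 2842 to 12239 CPM in Gli1+ and 2130 to 13534 CPM in Gli1- libraries, with a log2FC of -0.03 (SE 0.91) and overlapping populations. *Spp1* and *Col9a2*, the other most abundant ligand genes per kb, had log2FC of -0.54 and -0.52, each with overlapping populations.

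Inside the cell, 28 of 30 genes of the integrin adhesion core were tested and 0 were called by edgeR. At an unadjusted p-value under 0.05 in edgeR, where 1.43% of all genes were higher and 2.04% lower, 1 was higher and 1 lower. These were *Tln2*, a talin that activates integrins, at 1.94, named after its values were seen, and *Kank1*, which sits at the rim of focal adhesions, at -1.07. *Flna*, *Actn4* and *Actn1*, abundant actin linkers, had log2FC of 1.26, -0.0054 and 0.78 with overlapping populations. DESeq2 with the block, which called 0.777% of all genes higher and 2.11% lower, called *Flna* higher (adjusted p = 0.00146) and *Kank1* lower (adjusted p = 0.019), and no other gene of this list. The 3 integrin inhibitors, the 6 tetraspanins that bind integrins and the 8 other matrix receptors held no gene at an unadjusted p-value under 0.05 in edgeR. Among the last, *Cd44*, the hyaluronan receptor, was at 1718, 647 and 1279 CPM in Gli1+ cells and 808, 375 and 679 CPM in Gli1- cells, and *Ddr2*, a collagen receptor kinase, had a log2FC of 0.26 (SE 0.57).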

How the data were processed

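Libraries of poly(A) RNA from sorted cells, 3 Gli1+ and 3 Gli1-, were sequenced by the authors through Novogene. The authors deposited raw counts per gene, 1 column per library. The submitters' processing notes name HISAT2 2.0.5, featureCounts 1.5.0-p3 and mm10, without roles; the annotation and strand setting are not given in the sources used here. Of 54532 genes, 54409 were found in GENCODE M21 (GRCm38), 98.3% at the same coordinates. *Itga10* shares 1739 exon bases with *Gm42957* (1 to 18 counts) and *Itga1* 685 with *Gm49395* (0 to 15 counts), both on the same strand. Reads there could be split or left uncounted, which would lower the level of these members, and how they were handled is not given. *Itga8* shares 372 with an antisense gene (0 to 2 counts).
The 10 members and all gene lists were chosen with earlier results of these data known. Genes were filtered with filterByExpr (minimum count of 10), scaled by TMM and tested with edgeR 4.0.16 (quasi-likelihood test) in R 4.3.3, with Benjamini-Hochberg adjustment over 14801 genes. Standard errors are the log2FC over the root of F. DEGs needed a |log2FC| over 1 and an adjusted p under 0.05. DESeq2 1.42.0, limma-voom (limma 3.58.1), other scalings and filters, the replicate block and each library left out were alternatives. Another 3 alternatives were added once the data had been seen: both libraries of number 1 left out without the block, the same in DESeq2 with the block, and the longest coding transcript as gene length. Ratios used CPM per kb from counts plus 0.5. The edgeR step was tested on simulated data. Its pass condition used a low simulated spread, not that of these libraries, so it does not give the power here.
Same-numbered libraries correlated in their deviations from the population means, at 0.223, 0.720 and 0.471 for numbers 1, 2 and 3, over genes, which are not independent. Gli1+ replicate 1 correlated more with Gli1- replicate 3 (0.274) than with its own number, and Gli1+ replicate 3 also with Gli1- replicate 1 (0.107). Since each mouse gave cells to both populations according to the study, libraries with one number were treated as a pair, although no source says that a number marks a mouse. Totals of 17114101 to 18602482 counts make counting error small beside the spread between libraries, except for *Itga8*.
All members, *Gli1* and the other tested integrin subunits were named, and from the remaining lists up to 4 genes with the highest CPM per kb or any called. Like profiles were the 3 nearest genes. No column of per-sample values was left unused. Sequences came from GENCODE M21 transcripts. Figures used matplotlib 3.10.9.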

Additional observations from a re-analysis of the deposited data

How the results depend on the processing

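Of 189 comparisons of a member with an alternative, 161 kept their direction and side of the threshold, 8 became called and 20 turned sign, none of them for *Itga1*, *Itga10*, *Itga11* or *Itgb5*. The number of genes called was 0 in edgeR but 267 without a filter on low counts, 30 in DESeq2's Wald test and 428 in DESeq2 with the replicate block, and with both libraries of number 1 left out 1201 in edgeR and 781 in DESeq2 with the block, against 0 in edgeR on the same libraries without it. Members called were 2 in DESeq2 with the replicate block, 3 in edgeR with the block without number 1 and 3 in DESeq2 likewise; the block changed the call of no other member. Adjusted p-values over the alternatives ran from 4.1e-05 to 1.00 for *Itga1*, from 1.06e-06 to 1.00 for *Itga10* and from 7.48e-05 to 1.00 for *Itga11*. The lowest of each came from edgeR with the block and without number 1. That fit of 2 pairs rests mainly on a spread pooled over genes, not on the spread of the member itself. It put *Itga5* at a log2FC of 0.82 (adjusted p = 0.00121 from edgeR), and DESeq2 likewise at 0.81 (adjusted p = 0.00288 from DESeq2). *Itga5* was not called there because its |log2FC| was under 1. The median log2FC of the members ran from -0.58 to 0.27 with 1 library left out, the lowest without Gli1+ replicate 1. With 1 library left out the log2FC of *Itga1* was 1.58 to 2.22, of *Itga10* -1.49 to -0.80, of *Itga11* -1.24 to -0.56, of *Itgb5* -0.86 to -0.56, of *Itga3* -0.91 to 0.23, of *Itga5* -0.44 to 0.92, of *Itga6* -0.66 to 0.39, of *Itga8* -0.14 to 1.82, of *Itga9* -0.60 to 0.0632 and of *Itgb1* -0.30 to 0.50. *Itga6* was at -0.0636 in limma-voom, -0.0657 in edgeR and -0.0776 in DESeq2 with the replicate block, and with both libraries of number 1 left out at -0.50 and -0.51 in those blocked fits and -0.55 in edgeR without the block. In the same 3 fits without number 1, *Itga8* was at -0.33, -0.31 and -0.48 and *Itgb1* at -0.107, -0.112 and -0.0877. With 1 library left out, the ratio of *Itga10* to *Itga11* differed by -0.73 to 0.34 and that of the 8 alpha members to *Itgb1* by -0.52 to 0.57 on the log2 scale; the other 3 ratios kept their sign under every alternative run, that of RGD-binding to collagen-binding subunits at p = 0.1 to 0.4 (exact permutation), and with an exact sign-flip test over 3 pairs p cannot go below 0.25. The causes of these shifts were not tested. *Itga8* was not tested under the stricter filter.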

Other observations

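Among leukocyte integrins outside the tested set, *Itgam*, *Itgb2l* and *Itgax* had far more counts in Gli1- replicate 1 than in any other library. *Itgam*, the alpha subunit of the myeloid receptor Mac-1, had 957 counts there and 0 to 7 in the other 5 libraries. *Itgb2l* had 352 counts against 0 to 4, and *Itgax* had 47 against 3 to 17. *Itgad* and *Itgae* had 0 to 8 counts in every library. These genes did not pass the filter on low counts and were named after their values were seen.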
